A study of Mus musculus with 6 samples.

Results

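The miR-101 family was examined in mouse nephron progenitors, cortical kidney cells from which nephrons form, taken at E14.5, a stage of embryonic life, or on the day of birth, P0. Its 3 members, mmu-miR-101a-3p, mmu-miR-101a-5p and mmu-miR-101b-3p, were taken by name from a table of 1034 mature mouse miRNAs, and each had 1 row. Each stage had 3 samples of CD1 mice, each the pooled kidneys of 1 litter, from which Itga8-positive cells had been selected with antibody-coated beads. The values of a stage (its trio of libraries) are listed in the order of replicates 1, 2 and 3. No treatment and no altered allele was given for either stage. The mRNA markers of nephron progenitors are not measured by small-RNA libraries, so the labelled cell type could not be checked here.

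A miRNA is cut from a hairpin transcript as a duplex of a 5p and a 3p arm, and the arm that is kept guides an Argonaute protein to mRNAs that pair with its seed, bases 2 to 8. miR-101 acts through its 3p arm and is best known for lowering Ezh2, the enzyme of Polycomb repressive complex 2 that methylates histone H3 at lysine 27. In the nephron lineage Polycomb repression is known to take part in the balance between progenitor renewal and differentiation. Mouse has 2 well-characterised miR-101 hairpins, Mir101a and Mir101b, whose 3p arms are near-identical.

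The mature sequences are shown with the seed in capitals, because the members differ at their 5′ ends. They were read from RefSeq (build GRCm38.p6), in which 3 of the 3 members were found.
miR-101a-3p: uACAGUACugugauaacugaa
miR-101b-3p: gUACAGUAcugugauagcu
miR-101a-5p: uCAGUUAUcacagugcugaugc
miR-101a-3p and miR-101b-3p shared an unbroken stretch of 15 bases. Over the 18 bases that can be aligned they differed by 1 base, A16G (base of miR-101a-3p first, position counted from its 5′ end). The annotated miR-101b-3p begins 1 base earlier, so its bases 2 to 8 read UACAGUA where those of miR-101a-3p read ACAGUAC. Reads that cover only the shared stretch cannot be told apart, and the table does not show where in the annotated interval reads began. The GC content was 33.3% for miR-101a-3p, 42.1% for miR-101b-3p and 45.5% for miR-101a-5p.

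The hairpins are shown with both annotated arms in capitals, to place the members within their precursors.
Mir101a: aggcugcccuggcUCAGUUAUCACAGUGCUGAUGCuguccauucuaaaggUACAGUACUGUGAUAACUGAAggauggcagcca
Mir101b: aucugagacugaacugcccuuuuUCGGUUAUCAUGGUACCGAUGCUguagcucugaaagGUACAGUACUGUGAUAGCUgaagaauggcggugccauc
Mir101a lies on the minus strand at chr4:101346945-101347027 (GRCm38), where it overlaps an exon of the lincRNA E130102H24Rik on the same strand. miR-101a-3p takes chr4:101346957-101346977 and miR-101a-5p chr4:101346993-101347014. Mir101b lies on the plus strand at chr19:29135279-29135375, in an intron of Rcl1, a gene for a ribosomal RNA processing factor, on the same strand. miR-101b-3p takes chr19:29135338-29135356. The hairpins are thus separate loci with separate hosts.

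The seed matches in Ezh2 are shown because Ezh2 is the best-known target of the family. The letters GTACTGT pair with bases 2 to 8 of miR-101a-3p, and TACTGTA pairs with bases 2 to 8 of miR-101b-3p as annotated. GTACTGTA holds both, overlapping by all but their end letters. The longest annotated 3′ UTR of each protein-coding gene (GENCODE M21, basic set) was searched on the transcript strand only. The Ezh2 3′ UTR of 402 bases held 2 matches to GTACTGT, at its positions 59 and 114 counted from the base after the stop codon, and the match at 114 extended to GTACTGTA. Of 1789 3′ UTRs within 20% of that length, 2.63% held GTACTGT and 0.559% held GTACTGTA. The Mycn 3′ UTR of 913 bases, that of a transcription factor active in nephron progenitors, held 2 matches to GTACTGTA and another to TACTGTA alone, against 1.99% of 3′ UTRs of like length with GTACTGTA. The windows have the match in capitals, on the minus strand of GRCm38 in each case.
Ezh2, chr6:47530472-47530497: cttcaggaaccttgaGTACTGTgggc
Ezh2, chr6:47530416-47530442: ttctgaatttgcaaaGTACTGTAacag
Mycn, chr12:12936506-12936532: gaagttcacacctaaGTACTGTAagaa
Mycn, chr12:12936439-12936465: ttgttaatctgttatGTACTGTActaa
Among the other genes searched, Eed held 1 match to GTACTGT, Dnmt3a held 1 match to GTACTGT and 2 to TACTGTA, Fos held 1 match to GTACTGTA, and Mcl1 held TACTGTA alone. Among 3′ UTRs of like length, GTACTGT was in 1.88% for Eed and 36.4% for Dnmt3a, TACTGTA in 46.1% for Dnmt3a and 20.3% for Mcl1, and GTACTGTA in 1.86% for Fos. No match to these letters was found in the 3′ UTRs of Suz12, Six2, Cited1 or Lin28b. A match is a string of letters, not a measured site, and no mRNA was measured in these libraries.

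The 6 libraries held between 2649506 and 34934526 reads recovered from the table, with E14.5 replicates 1 and 3 the shallowest. Levels are given in TPM, reads per base of annotated length scaled to 1000000 per library. The median log2 fold change from E14.5 to P0 over the 670 miRNAs tested was −1.20 for TPM values. It was −0.18 once libraries were scaled by the median of ratios, which sets libraries to the behaviour of the typical miRNA. A miRNA that holds its share of the library total therefore rises relative to most others, and the stage differences of the members are given on both scales. P0 replicate 1 stood apart from the other P0 libraries: leaving it out raised the miRNAs called in TPM from 229 to 420. Marker miRNAs of other cell types were present, and how many passed the test depended on the scale. In TPM the 2 endothelial markers (the arms of miR-126a) summed to 26608 to 44921 at E14.5 and 5634 to 8158 at P0, the 9 stromal markers to 124424 to 149013 and 56910 to 73430, and the 5 epithelial markers of the miR-200 family to 4122 to 23183 and 500.2 to 1542. The 5 erythroid markers summed to 242 to 417 TPM at E14.5 and 128 to 194 at P0, and the 4 leukocyte markers to 632 to 1202 and 454 to 629. In TPM 2 of 2 endothelial, 6 of 9 stromal, 5 of 5 epithelial, 1 of 5 erythroid and 0 of 4 leukocyte markers were called lower at P0, and none was called higher, where 32.8% of all miRNAs tested were called lower. After the scaling, where 5.22% of all were called lower, the counts were 1, 0, 3, 0 and 0, and 1 leukocyte marker, miR-223-3p, was called higher. The scaled sums were 16732 to 29724 at E14.5 against 9305 to 14318 at P0 for endothelial and 2806 to 15340 against 946 to 1759 for epithelial markers. They overlapped for stromal (84712 to 88527 against 75310 to 129537), erythroid (165 to 276 against 145 to 363) and leukocyte markers (430.4 to 796 against 717 to 858). Of all these markers, miR-486a-3p alone was listed at 0 in at least 1 library. Their part in the values below was not tested, and in bulk samples fewer cells of a type and less RNA per cell cannot be told apart.

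The 3p arm of the Mir101b hairpin was the more abundant guide in every library. miR-101b-3p had 2366, 1670 and 2070 TPM in the E14.5 trio, and 2737, 1236 and 1329 TPM in the P0 trio. The highest and the lowest values were both from P0, so the stages overlapped, with an E14.5 mean of 2036 ± 349 and a P0 mean of 1767 ± 841 (SD, n = 3). miR-101a-3p had 956, 411 and 724 TPM in the E14.5 trio, and 1544, 688 and 850 TPM in the P0 trio. Its stages also overlapped, with P0 replicate 2 below E14.5 replicates 1 and 3, and it had an E14.5 mean of 697 ± 273 and a P0 mean of 1027 ± 455 (SD, n = 3). By mean TPM over all libraries miR-101b-3p ranked 60 and miR-101a-3p ranked 85 of 1034 miRNAs.

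The 5p arm of Mir101a, the strand usually discarded, was rare, at 6 to 84 reads per library. miR-101a-5p had 15.5, 0.255 and 2.35 TPM in the E14.5 trio, from 41, 6 and 12 reads. It had 2.42, 1.2601 and 1.30 TPM in the P0 trio, from 84, 28 and 28 reads. The high value of E14.5 replicate 1, whose 41 reads have an exact 95% Poisson interval of 29.4 to 55.6 reads, lay far above every other library, while E14.5 replicate 2 was the lowest. At a length step of 21 bases, 3 reads equal 1.14, 0.127 and 0.587 TPM for the E14.5 trio and 0.0863, 0.135 and 0.140 TPM for the P0 trio.

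**Figure D1:**
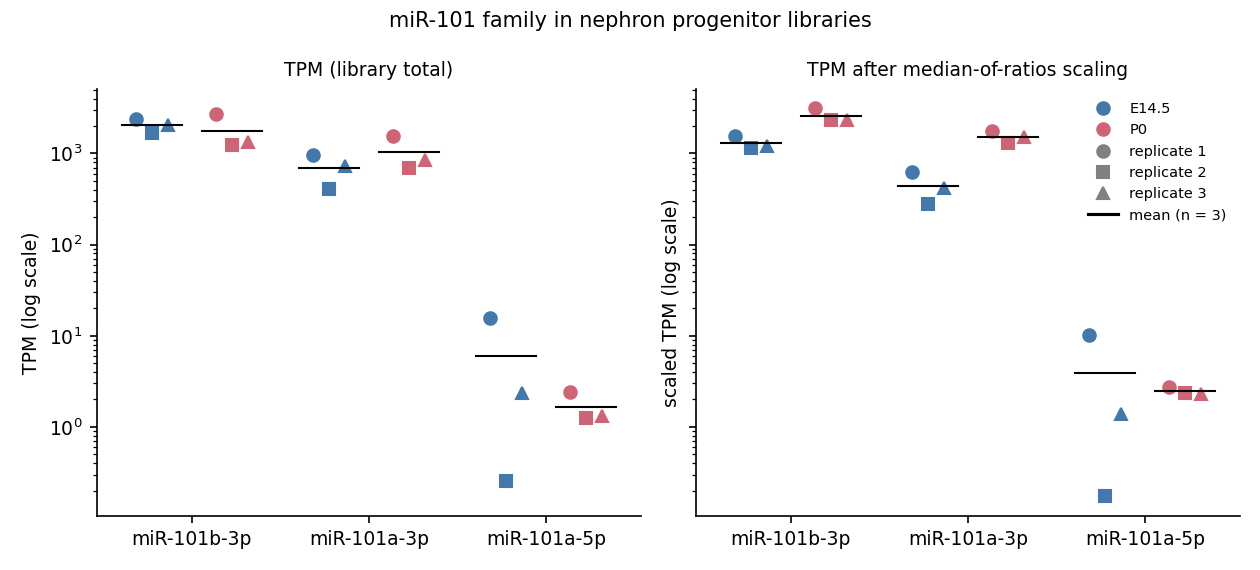
Level of each miR-101 member in each library, in TPM (left) and after median-of-ratios scaling (right), on log axes. Points are single libraries, shaped by replicate number, and the bar is the mean of 3. On the left the stages overlap for all 3 members. On the right the P0 points of miR-101b-3p (2336 to 3122) and miR-101a-3p (1301 to 1761) lie above those of E14.5.

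In TPM none of the 3 members passed the test between stages. The limma log2 fold change from E14.5 to P0 was 0.56 for miR-101a-3p (SE 0.55, 95% interval −0.63 to 1.74, adjusted p = 0.417), −0.29 for miR-101b-3p (SE 0.50, −1.37 to 0.79, adjusted p = 0.648) and −0.66 for miR-101a-5p (SE 0.80, −2.39 to 1.08, adjusted p = 0.509). The count called was 0 of 3 with limma, 0 of 3 at an unadjusted p under 0.05 and 0 of 3 with limma-voom, beside 34.2%, 49.0% and 27.0% of all miRNAs tested by the same rules. The 34.2% called by limma comprised 32.8% lower and 1.34% higher at P0. No member had stages free of overlap in TPM, against 3.13% of miRNAs not overlapping and higher at P0 and 46.4% not overlapping and lower. Relative to the median of all miRNAs tested, the changes in TPM were 1.75 for miR-101a-3p, 0.91 for miR-101b-3p and 0.54 for miR-101a-5p. Those values placed 89.1%, 75.2% and 67.5% of miRNAs below the respective member.

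After median-of-ratios scaling miR-101a-3p rose at P0. Its scaled levels were 632, 280 and 422 in the E14.5 trio and 1761, 1301 and 1500 in the P0 trio. The lowest P0 library was above the highest E14.5 library, and the log2 fold change was 1.84 (SE 0.44, 95% interval 0.85 to 2.82, adjusted p = 0.0333). The authors' deposited table gave 2.07 with a standard error of 0.61 and an adjusted p-value of 0.0101 for the same miRNA, and it was the 1 member called there, where 5.13% of miRNAs were called higher at P0. Of the 3 members 1 was called higher and none lower in the median-of-ratios fit, in which 5.67% of all miRNAs tested were called higher and 5.22% lower. The call was kept in 1 of 6 fits that left out a library. Without E14.5 replicate 1, 2 or 3 the limma adjusted p was 0.151, 0.0814 and 0.173, and without P0 replicate 2 or 3 it was 0.106 and 0.102, while without P0 replicate 1 it was 0.00675. The fold change stayed between 1.56 and 2.11 in those 6 fits, in which the number of miRNAs called ranged from 0 to 332. The fit that kept the call, without P0 replicate 1, was the one with 332 of 689 miRNAs called, 149 of them higher at P0. Every other fit called at most 7.

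miR-101b-3p had scaled levels of 1566, 1137 and 1208 in the E14.5 trio and 3122, 2336 and 2345 in the P0 trio. These stages did not overlap either, but the log2 fold change of 1.00 (SE 0.40, 95% interval 0.12 to 1.88) did not pass the threshold (adjusted p = 0.111), and its sign was opposite to that in TPM. The authors' deposited table gave 1.02 with a standard error of 0.58 and an adjusted p-value of 0.214. After this scaling 2 of the 3 members had stages that did not overlap and were higher at P0, against 15.8% of all miRNAs tested, and 19.6% did not overlap and were lower. miR-101a-5p had scaled levels of 10.3, 0.173 and 1.37 in the E14.5 trio and 2.76, 2.38 and 2.30 in the P0 trio. Its P0 libraries were close to each other and lay within the spread of E14.5, with a log2 fold change of 0.14 (SE 0.77, adjusted p = 0.909). In the authors' deposited table it had 1.28 with a standard error of 1.53.

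**Figure D2:**
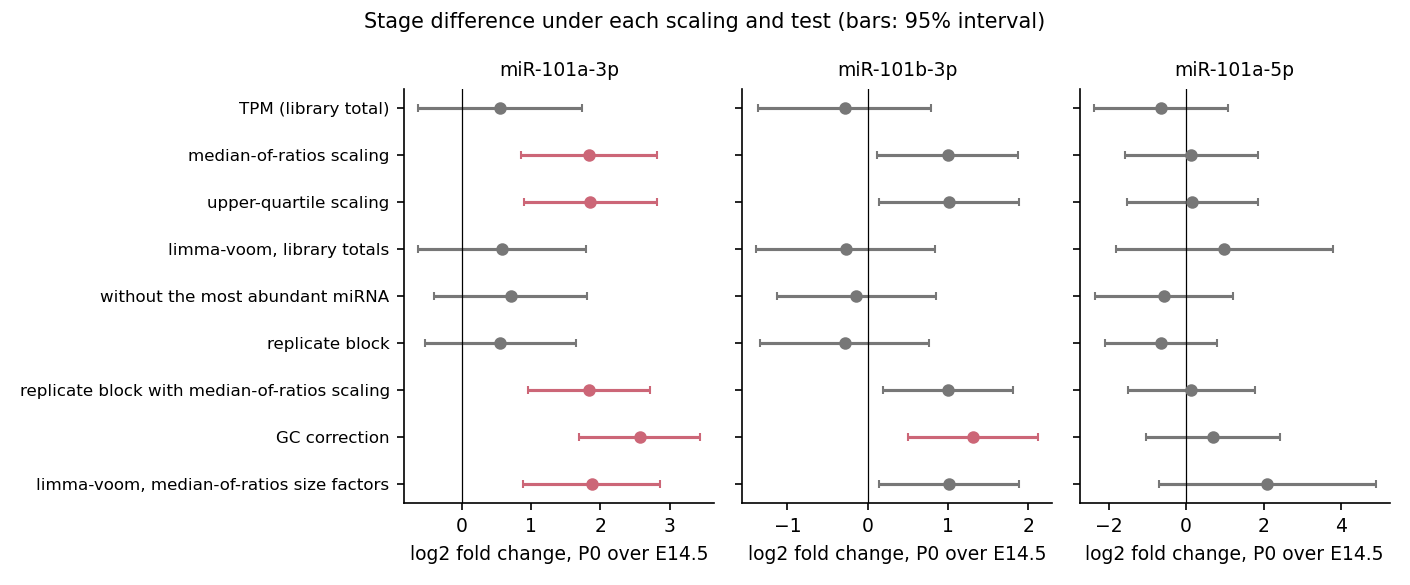
Log2 fold change from E14.5 to P0 of each member (points) with its 95% interval (bars) under 9 fits, each panel with its own x axis. Red marks an adjusted p under 0.05 and grey the rest. miR-101a-3p is positive in every fit shown (0.56 in TPM, 1.84 after median-of-ratios scaling), whereas miR-101b-3p and miR-101a-5p change sign between fits.

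The balance between the 2 guides is the same under any scaling of a library by 1 factor, and miR-101a-3p took a larger share in every P0 library. The sources used here do not say how reads shared by miR-101a-3p, miR-101b-3p and miR-101c were assigned, so the share is that of reads as the authors assigned them. Of the reads of both 3p arms, miR-101a-3p took 31.0% (95% Wilson interval 30.0 to 32.0), 21.5% (21.1 to 21.9) and 28.0% (27.2 to 28.8) in the E14.5 trio. It took 38.5% (38.3 to 38.8), 38.2% (37.7 to 38.7) and 41.5% (41.1 to 42.0) in the P0 trio. All P0 libraries were above all E14.5 libraries, with means of 26.8% ± 4.86 and 39.4% ± 1.83 (SD, n = 3). The log2 ratio of miR-101a-3p to miR-101b-3p in TPM averaged −1.61 ± 0.37 over E14.5 libraries against −0.77 ± 0.11 over P0 libraries (SD, n = 3), a difference of 0.84 or 1.79-fold. The exact permutation p (two-sided) was 0.1, and no smaller p can be reached with 3 libraries per stage. P0 replicate 1, which stood apart in other respects, had a share within the range of P0 replicates 2 and 3, and the difference was 0.64 to 1.00 over the 6 omissions of a single library. miR-101b-3p remained the larger part in all 6 libraries, at 4.07 times the TPM of miR-101a-3p in E14.5 replicate 2 and 1.56 times in P0 replicate 3.

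**Figure D3:**
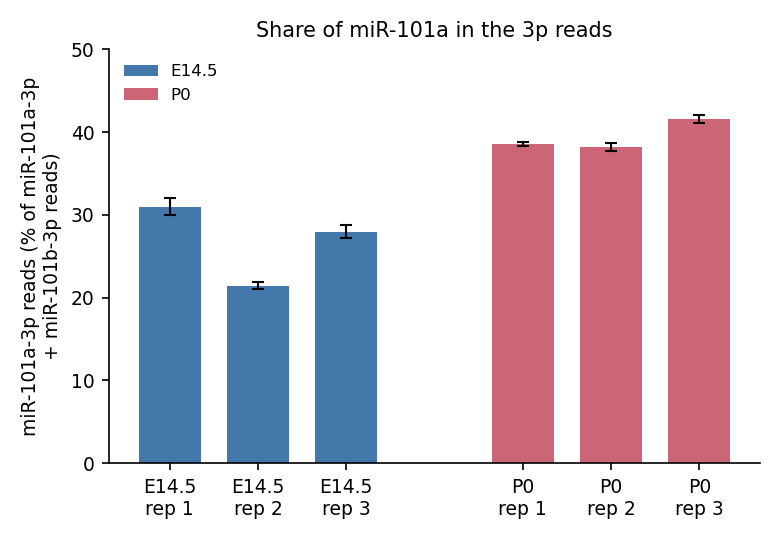
Reads of miR-101a-3p as a percentage of the reads of miR-101a-3p and miR-101b-3p together, 1 bar per library, with 95% Wilson intervals that cover counting error only. The E14.5 bars reach 21.5 to 31.0% and the P0 bars 38.2 to 41.5%.

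The summed level of the 2 guides, whose bases 2 to 8 differ as annotated, was 3322, 2081 and 2794 TPM in the E14.5 trio and 4281, 1924 and 2179 TPM in the P0 trio. The P0 libraries spanned the E14.5 values, and the difference of mean log2 values was −0.04 (exact two-sided permutation p = 1). After median-of-ratios scaling the sums were 2198, 1417 and 1630 at E14.5 and 4883, 3637 and 3845 at P0, a difference of 1.25 with no overlap (exact two-sided permutation p = 0.1, the smallest possible).

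The arms of each hairpin were compared within libraries. For Mir101a the 5p arm was 1.68% of the reads of both arms in E14.5 replicate 1 (95% Wilson interval 1.24 to 2.27), 0.0650% (0.0298 to 0.142) in replicate 2 and 0.340% (0.194 to 0.593) in replicate 3. It was 0.164%, 0.192% and 0.161% in the P0 trio. The P0 libraries were alike, and the E14.5 libraries spread around them on both sides. The log2 ratio of miR-101a-3p to miR-101a-5p was taken with 1 TPM added to each arm. It averaged 7.32 ± 1.31 over E14.5 libraries against 8.53 ± 0.28 over P0 libraries (SD, n = 3). The exact permutation p (two-sided) for the difference of 1.21 was 0.2, and without E14.5 replicate 1 the difference was 0.48. With 0.1 TPM added the difference was 1.06, and with recovered reads plus 1 it was 1.05. Each of those had an exact two-sided permutation p of 0.6. The TPM ratio with nothing added was 61.6, 1613.5 and 308 in the E14.5 trio and 639, 546 and 652 in the P0 trio. E14.5 replicate 2 was thus the highest library, which the added 1 TPM hides. miR-101b-5p, the other arm of Mir101b and not one of the 3 members, had 6.87, 10.4 and 6.91 TPM in the E14.5 trio and 6.84, 1.72 and 0.7998 TPM in the P0 trio. Every P0 value was below every E14.5 value in TPM, by a small margin for P0 replicate 1, as for 46.4% of all miRNAs tested. The scaled levels overlapped, with P0 replicate 1 the highest of the 6 at 7.80, and the log2 fold change was −1.40 for TPM values (SE 0.64, adjusted p = 0.0997) and −0.44 for scaled values (adjusted p = 0.642). miR-101b-3p thus had 345, 161 and 299 times the TPM of its 5p partner at E14.5 and 400.4, 719 and 1662 times at P0, from 18 to 256 reads of the 5p arm.

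Sequence relatives outside the 3 members were far less abundant than the 2 guides. miR-101c, annotated on chromosome 9, is contained in full in miR-101a-3p (19 bases), so its reads cannot be assigned with certainty. It had 0, 3 and 0 reads at E14.5 and 7, 10 and 8 reads at P0, too few for the tested set. miR-144-3p, an erythroid miRNA, shares its first 7 bases with miR-101a-3p but not base 8. It had 65.7, 15.0 and 62.5 TPM in the E14.5 trio and 19.2, 25.5 and 12.6 TPM in the P0 trio, with log2 fold changes of −1.07 in TPM (adjusted p = 0.217) and 0.16 after scaling (adjusted p = 0.889).

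The members were set against the GC content of all mature sequences, since miR-101a-3p is AU-rich. Of 669 tested miRNAs with a sequence, 6.28% had a GC content as low as that of miR-101a-3p or lower, and 28.6% as low as that of miR-101b-3p. AU-rich miRNAs were the ones with the lowest stage differences. In 5 bins of rising GC content the median log2 fold change after median-of-ratios scaling was −0.91, −0.56, −0.02, 0.09 and 0.47. In the lowest bin 5 of 133 miRNAs were called higher and 12 lower at P0 after that scaling. miR-101a-3p fell in that bin and ranked 5 of 133 from the top by log2 fold change on either scale. miR-101b-3p fell in the second bin and ranked 21 of 134 after scaling and 25 in TPM, and miR-101a-5p in the same bin ranked 38 after scaling and 27 in TPM. Bins 1 and 2 met at 40.9% GC and bins 2 and 3 at 45.5%, and miRNAs of equal GC content were split there. The ranks, and the bin of miR-101a-5p, thus depend on how ties were placed. With a correction of each library for GC content the log2 fold change was 2.57 for miR-101a-3p (SE 0.40, adjusted p = 0.00942) and 1.31 for miR-101b-3p (SE 0.37, adjusted p = 0.0446), where 5.83% of miRNAs were called higher. This correction acts on each miRNA by its GC content and so also changes the distance between the guides. It was applied to TPM values without median-of-ratios scaling, and it also recentred each library. The median log2 fold change of all miRNAs tested was −1.20 in TPM and −0.05 with the correction, so its values do not show the effect of GC content alone. The call of miR-101b-3p was lost when the replicate number was added as a block (adjusted p = 0.0611). miR-101a-5p had 0.70 (SE 0.78, adjusted p = 0.585) with the correction.

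**Figure D4:**
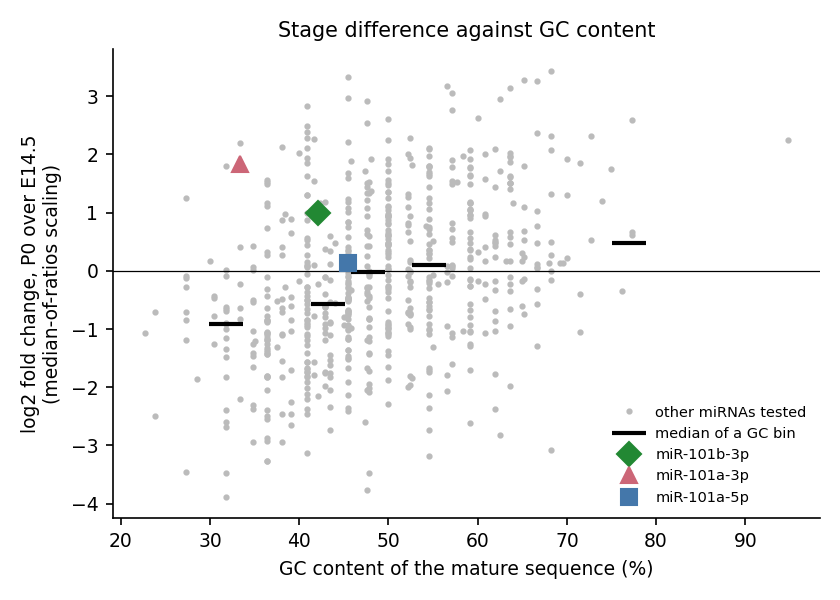
Log2 fold change from E14.5 to P0 after median-of-ratios scaling against the GC content of the mature sequence, 1 point per tested miRNA. Black bars are the medians of 5 bins of equal size, drawn at the middle of each bin's range, and rise from −0.91 to 0.47. miR-101a-3p (33.3% GC) lies at 1.84, among the highest points of the AU-rich side.

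Other miRNAs known to target Ezh2 were called in both directions. Of 19 listed, 17 passed the filter of a mean of 1 TPM, and miR-124-3p and miR-217-5p did not. In TPM 2 were called higher, 4 lower and 11 were not called, where 1.34% of all miRNAs tested were called higher and 32.8% lower, with a median log2 fold change of −0.72 beside −1.20 for all miRNAs tested. After median-of-ratios scaling 7 were called higher, 1 lower and 9 were not called, where 5.67% of all miRNAs tested were called higher and 5.22% lower, with a median of 0.57 beside −0.18. Of the 7, all but miR-30d-5p were 5p guides of 1 family, let-7 (a, b, c, e, f and i), whose near-identical sequences may share reads. The listed let-7g-5p and let-7d-5p were called on neither scale, with log2 fold changes of −1.71 in TPM and −0.43 scaled for let-7g-5p and of −1.21 and 0.07 for let-7d-5p. The listed miRNAs called higher in TPM were let-7b-5p and let-7c-5p, from the family that represses growth-promoting mRNAs such as Lin28b, with log2 fold changes of 2.04 (adjusted p = 0.00698) and 1.20 (adjusted p = 0.0452). Those called lower in TPM were miR-214-3p (−2.98), miR-137-3p (−2.90), miR-138-5p (−2.82) and miR-98-5p (−2.19), itself a let-7 family member, each with a limma adjusted p of at most 0.0101, and miR-214-3p is also on the stromal list. After scaling let-7b-5p had 3.32 and let-7c-5p 2.48, both called, while miR-214-3p had −1.71, miR-138-5p −1.78 and miR-98-5p −0.91, none called. miR-137-3p, with 7.23, 7.21 and 12.0 TPM at E14.5 and 1.10, 0 and 0 TPM at P0, was also called after scaling (adjusted p = 0.0333). It passed the filter only through its E14.5 level, and with 2 libraries at 0 its fitted fold changes depend on the pseudocount. miR-26a-5p, another regulator of Ezh2 and more abundant than miR-101, had 22531, 22386 and 19273 TPM at E14.5 and 28453, 8538 and 8995 TPM at P0 in replicates 1, 2 and 3. As with miR-101b-3p, P0 replicate 1 was the highest library and P0 replicates 2 and 3 were the lowest, with log2 fold changes of −0.72 in TPM (adjusted p = 0.268) and 0.57 after scaling (adjusted p = 0.387).

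**Figure D5:**
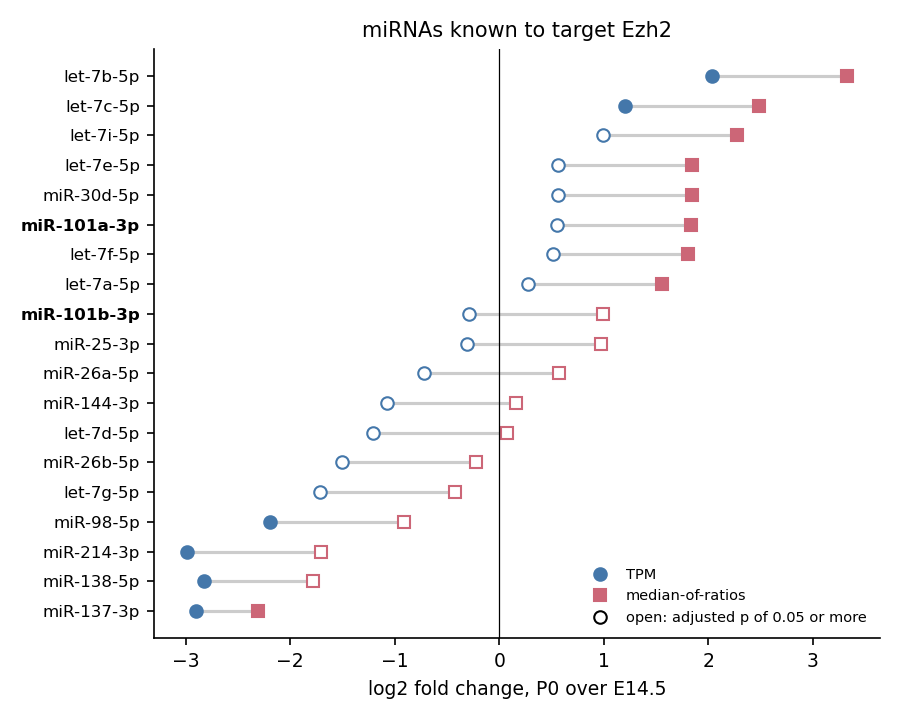
Log2 fold change from E14.5 to P0 of 17 listed miRNAs known to target Ezh2 and of the miR-101 guides (bold), in TPM (circles) and after median-of-ratios scaling (squares). Filled symbols passed an adjusted p of 0.05 and open ones did not. miR-101a-3p (0.56 and 1.84) lies between let-7f-5p and miR-30d-5p, and miR-101b-3p (−0.29 and 1.00) beside miR-25-3p.

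Profiles most like each guide were found among 432 miRNAs averaging 10 TPM or more, by the root mean square difference of log2(TPM + 1) values centred on each miRNA's mean over the 6 libraries. For miR-101a-3p the nearest were miR-223-3p (0.242), miR-140-5p (0.383) and let-7b-3p (0.423), and miR-101b-3p ranked 6 of 431 (0.476). miR-223-3p is a myeloid miRNA on the leukocyte list, with 156, 107 and 147 TPM at E14.5 and 249, 141 and 147 TPM at P0 in replicates 1, 2 and 3. The other 3 leukocyte markers had log2 fold changes of 0.01 to 0.46 after median-of-ratios scaling, against 1.63 for miR-223-3p (adjusted p = 0.0401). The part of leukocytes in the miR-101a-3p values was not tested. For miR-101b-3p the nearest were miR-27b-3p (0.183), miR-24-3p (0.216) and miR-664-5p (0.233), and miR-101a-3p ranked 42 of 431. miR-27b-3p, the closest of all, had 20087, 15317 and 14570 TPM at E14.5 and 24560, 13389 and 11688 TPM at P0. miR-101a-5p was below the level used for this comparison.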

How the data were processed

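The members and lists were chosen with earlier results of these data known. Small RNA of 3 litter pools per stage was sequenced, and the authors deposited 1 table of 1104 rows with a TPM value per sample. Per the submitters' processing notes, featureCounts, DESeq2 1.26.0 and build mm10 were used, and trimming, aligner and molecular tags are not given in the sources used here. The deposited table also held a mean normalised signal (baseMean), log2 fold changes with standard errors, a test score, p-values and adjusted p-values. TPM times end minus start was a whole multiple of 1 step per library for 100% of non-zero values (tolerance 0.01), which gave reads. Reads divided by median-of-ratios size factors matched the deposited baseMean signal to a relative difference of at most 4.75e-15.

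Of rows sharing a name the one with most reads was kept (1034 miRNAs). limma 3.58.1 (R 4.3.3) with a variance trend was fitted to log2(TPM + 1) for the 670 miRNAs averaging 1 TPM or more. P-values were adjusted over all of them by Benjamini-Hochberg and called below 0.05. The added 1 TPM can move fold changes of low miRNAs either way. The median over all tested was −1.20 with 1 TPM and −1.51 with 0.1 TPM added, against −0.66 and −0.50 for miR-101a-5p. A count model had been planned for counts, and the deposited unit was TPM. The fitting script was tested on simulated data. Ratios, taken after adding 1 TPM to each value, were tested by exact permutation with scipy 1.17.1. Sequences were available for 883 miRNAs by name and position in RefSeq, and GC content used these and GENCODE M21. The named miRNAs were the members, their hairpin partner and seed relatives, the 3 nearest profiles of each guide, and members of the Ezh2 list called in TPM. Other miRNAs of that list were named after their values were seen. Alternatives were other scalings, filters, pseudocounts, limma-voom, summed rows, GC correction, the replicate block and leaving out libraries. No batch was given. Poisson and Wilson intervals and floors cover counting error only, whereas the limma intervals come from the spread between libraries.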

Additional observations from a re-analysis of the deposited data

How the results depend on the processing

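The sign of miR-101b-3p followed the scaling, while miR-101a-5p and the summed guides also changed sign within TPM. For median-of-ratios, upper-quartile, median-of-ratios limma-voom (chosen after seeing the data) and GC-corrected values in turn, the log2 fold change was 1.84, 1.85, 1.87 and 2.57 for miR-101a-3p, each called. It was 1.00, 1.01, 1.01 and 1.31 for miR-101b-3p, and 0.14, 0.16, 2.09 and 0.70 for miR-101a-5p, which was 0.98 with limma-voom on library totals. The summed guides had 1.25 and 1.265 with the first 2 scalings and 0.11 without the most abundant miRNA. In the same order 73, 58, 28 and 68 miRNAs were called. With the replicate block the values of miR-101a-3p, miR-101b-3p, miR-101a-5p and the count were 1.84, 1.00, 0.14 and 56 with median-of-ratios scaling and 2.57, 1.31, 0.70 and 70 with GC correction, and in TPM 0.56, −0.29, −0.66 and 247. Paired by replicate number, the exact permutation p was 0.25 (the smallest 3 pairs allow) for the ratio of the guides, 0.5 for the arm ratio and 1 for the summed guides, whose differences pairing cannot change. Same-numbered libraries had correlations of deviations of 0.193, 0.183 and 0.0423, not all over 0.1, so pairing was not taken as established; P0 replicate 3 correlated best with E14.5 replicate 2 (0.0770). The block ended the GC-corrected call of miR-101b-3p and no other call of a member.

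With each library left out in TPM, ranges were 0.22 to 0.82 for miR-101a-3p, −0.65 to −0.08 for miR-101b-3p, −1.51 to 0.35 for miR-101a-5p (positive without E14.5 replicate 1), 0.64 to 1.00 and 0.48 to 1.73 for the 2 ratios, −0.39 to 0.19 for the summed guides and 72 to 420 for the count. With median-of-ratios scaling, a combination chosen after seeing the data, they were 1.56 to 2.11, 0.81 to 1.13, −0.56 to 1.00 and 0 to 332. miR-101b-3p was called there without P0 replicate 1 (limma adjusted p = 0.0346, and 0.208 to 0.326 without another library). In that fit 332 of 689 miRNAs were called, 149 of them higher at P0. The count of 0 arose in 3 limma fits, with 140 to 150 miRNAs at an unadjusted p under 0.05. Other filters, pseudocounts and summed rows were run in TPM only, where no member was called, and changed no sign of a member there. The filter at 10 TPM left out miR-101a-5p. miR-101a-5p rests on only 6 to 84 reads per library. Its 95% Poisson intervals in the E14.5 trio (11.1 to 21.1, 0.0934 to 0.554 and 1.21 to 4.10 TPM) did not overlap, so its spread there exceeded counting error.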
